A study of Homo sapiens with 6 samples.

Results

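The proteasome genes were analysed in an AGO2 pull-down experiment. They were taken by symbol: protein-coding genes whose name starts with PSMA, PSMB, PSMC, PSMD, PSME, PSMF or PSMG and then a digit, with a summed count of at least 200 over the 4 mimic libraries. The rule left 47 of 50 genes with such a symbol, among 13078 genes that reached the same minimum. PSMA2, PSMA8 and PSMB11 fell below it with 59, 14 and 9 counts. PSMC3IP, a meiotic recombination factor, and PSME3IP1, a protein that binds PSME3, matched the symbol without being subunits and are counted among the 47. The other 45 members were 13 constitutive core subunits, 3 inducible core subunits, 17 regulatory particle subunits, 4 activators, 1 inhibitor and 7 assembly chaperones.

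The cells were MDA-MB-231, a mesenchymal triple-negative human breast cancer line used for AGO2-RIP-seq. They were transfected with 25 nM of a miR-99b-5p mimic or of a scrambled control oligonucleotide and harvested 18 hours later. AGO2, the Argonaute protein that holds microRNAs, was pulled down, and RNA was sequenced from the pull-down (AGO2-IP) and from the flow-through that it left. There were 2 AGO2-IP and 2 flow-through libraries of mimic cells, numbered as biological replicates, and 1 AGO2-IP and 1 flow-through library of control cells. This is how the library titles name the control libraries, whereas the sample list of the study calls them replicates of 1 control condition and its methods state replicates in each condition. Every control value below rests on the titles. All libraries come from this 1 cell line, with no untransfected cells among them, and an IgG pull-down was not analysed here.

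The proteasome is the protease that degrades ubiquitin-tagged proteins. Its core particle is a barrel of stacked rings, with alpha subunits at the gate and beta subunits, some of them proteolytic, in the chamber. The regulatory particle caps the barrel: its base holds a ring of ATPases that unfold the substrate, and its lid removes ubiquitin. Chaperones assemble each part, and activators and inhibitors bind the ends of the barrel. Cancer cells with a high protein turnover depend on it.

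The mature sequence of miR-99b-5p and the places where a proteasome transcript could pair with its seed are shown first, because the mimic loads this microRNA into AGO2. The microRNA is encoded at chr19:51692618-51692639 on the plus strand (RefSeq, GRCh38.p14), and capitals mark the seed, bases 2 to 8.
miR-99b-5p: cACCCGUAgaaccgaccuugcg
Canonical transcripts (GENCODE 44) were searched on the transcript strand for the letters ACGGGT, which pair with seed bases 2 to 7, alone or with T before them, A after them or both. They were found in 4 of 47 members (8.51%), against 17.1% of 11747 protein-coding genes tested. All 5 sites lay in coding sequence, and no member had a match in its 3′ untranslated region, where 6.67% of all genes tested had one. The 7- and 8-base forms were found in 3 members (6.38%), against 5.71% of all. Member transcripts are shorter, with a median of 1518 bases against 3492 over all protein-coding genes tested. Their median 3′ untranslated region was 337 bases, against 1383.5. The shares were not adjusted for these lengths, so they do not show that members have fewer matches than their lengths allow. Each site is printed 5′ to 3′ with the searched letters in capitals. A capital A at the end of a match lies opposite base 1 of the microRNA and does not pair with it.
PSMD1: ggatccactaaTACGGGTActgttccggga
PSMD12: aggtggaaaccTACGGGTcaatggaaaaga
PSMB8, first site: cattagtgcctTACGGGTgaacaaggtgat
PSMB8, second site: aatatgttctccACGGGTAgtgggaacact
PSMD3: gaggaggcagcgACGGGTggcgggtcgacg
The PSMD1 window is at chr2:231072372-231072401 on the plus strand, the PSMD3 window at chr17:39981085-39981114 on the plus strand and the second PSMB8 window at chr6:32841658-32841687 on the minus strand. The PSMD12 and first PSMB8 windows cross an exon junction and span chr17:67347458-67348551 and chr6:32842759-32842946, both on the minus strand. A match is a description of these letters and was not tested for binding.

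Libraries held 7772149 and 8076375 counts on genes in the control and 38022779 to 48544756 in the mimic, while 92.3% and 95.03% of control read pairs and 21.4% to 47.2% of mimic read pairs were assigned to no single gene. Pairs that mapped to several places made up 73.7% and 76.7% of the control libraries and 2.38% to 19.2% of the mimic libraries, so transfection and this difference in composition cannot be told apart. VIM, CD44, AXL, EGFR, S100A4 and LGALS1, which mark MDA-MB-231, ran from 49.0 to 2729 CPM (counts scaled to library size). ESR1 and PGR had at most 0.99 CPM, and PTPRC, CD3E, HBB and ALB at most 1.86 CPM. EPCAM, an epithelial marker, ran from 2.80 to 11.8 CPM. These marker values carry no TMM factors, whereas all other printed CPM were also scaled with TMM factors of the 6 libraries. Each CPM is a relative level within a library, so a larger share of RNA from a gene and a smaller share of all other RNA cannot be told apart. Fitted changes and control ratios were scaled on the libraries of their own comparison, so a ratio of printed CPM can differ slightly from them.

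To determine which proteasome mRNAs were over-represented with AGO2 in mimic cells, the mimic AGO2-IP and flow-through were compared with edgeR. The mRNAs of 2 regulatory particle subunits rose in the AGO2-IP, PSMC6, a base ATPase, and PSMD14, the lid deubiquitinase, and no member fell. These 2 of 47 stand beside 0.245% of 13078 genes called higher and 0.413% called lower, where called means a change of 1 or more in size on the log2 scale and a Benjamini-Hochberg adjusted p of at most 0.05. At an unadjusted p under 0.05 there were 12 members, 9 higher and 3 lower (PSMB3, PSME2 and PSMF1), or 25.5% of members against 23.8% of all genes. With PyDESeq2, 9 members were called higher and 2 lower, PSMB3 and PSME2, beside 6.43% and 8.24% of genes. Both edgeR calls were lost with DESeq2 size factors (adjusted p = 0.053 each), and no member was called with library size alone, filterByExpr, either strand column or protein-coding genes only. Few genes of any kind were called in these fits. The shares called higher were 0.0994% with DESeq2 size factors, 0.0688% with library size and 0.0957% with filterByExpr. They were 0.00722% and 0.0146% on the strand columns and 0% with protein-coding genes only. At most 0.268% of genes were called lower. The median log2 fold change of the members was 0.47 (SD 1.45, n = 47 genes, 30 above 0), against −0.11 over all genes and −0.05 (SD 1.33) over protein-coding genes tested.

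The count of calls moved with the fit. The replicate number as a block gave 6 members higher (PSMC6, PSMD14, PSMC2, PSMD10, PSMD1 and PSMD2) and 1 lower (PSMB3), beside 4.6% and 5.08% of all genes. Leaving out a mimic library leaves 1 library in an arm, so the median log2 fold change of the members is given instead of calls. It was 0.54 and 0.27 without mimic flow-through replicates 1 and 2, and −0.00136 and 0.78 without mimic AGO2-IP replicates 1 and 2.

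Without any test, both mimic AGO2-IP libraries lay above both mimic flow-through libraries for 20 of 47 members and below both for 14. The corresponding shares of all genes were 28.1% and 28.5%, and those of members 42.6% and 29.8%. With the control pair added, the 3 AGO2-IP libraries lay above the 3 flow-through libraries for 15 members and below for 11, beside 15% of all genes on each side.

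Over both transfections, AGO2-IP against flow-through was tested with 3 libraries a side and transfection as a covariate. In all, 5 members rose, PSMD14, PSMC6, PSMD2, PSMD1 and PSMB1, and 1 fell, PSMB3, beside 2.58% of 13319 genes called higher and 2.85% called lower. At an unadjusted p under 0.05, 14 members were higher and 9 lower, 48.9% of members in all against 28.1% of genes. Of the 5 members that rose, 4 belong to the regulatory particle, which has 17 of the 47 members. Leaving out either mimic AGO2-IP replicate left no member called, beside 0% of all genes. None was called without the control AGO2-IP either, beside 0.0379% of genes higher and 0.152% lower. Without the control flow-through 2 were higher (PSMC6 and PSMD14), beside 0.28% of genes. Leaving out mimic flow-through replicate 2 gave 12 higher and 8 lower, beside 14.8% and 14.5% of genes. Without mimic flow-through replicate 1, 3 were higher and 1 lower, beside 1.28% and 2.62% of genes.

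The alpha ring subunits form the gate of the core particle. In the mimic AGO2-IP they were on balance higher, with a median log2 fold change of 1.07 and 5 of 6 above 0. None passed the test (adjusted p from 0.26 to 0.74, edgeR). In the control pair their median log2 ratio was 0.00059, with 3 of 5 above 0. PSMA4 had the highest value of the 6. It was at 90.6 and 16.7 CPM in the mimic flow-through, 152 and 134 CPM in the mimic AGO2-IP, 53.5 CPM in the control flow-through and 62.3 CPM in the control AGO2-IP. The mimic AGO2-IP libraries were above all others, and flow-through replicate 2 was far below replicate 1. The log2 fold change was 1.40 ± 0.77 (SE). Over all pairings of single mimic libraries across the fractions, regardless of replicate number, the log2 ratio ran from 0.56 to 3.16. PSMA7 was the most abundant member per length in all 3 flow-through libraries. Its level was 294 and 419.5 CPM in the mimic flow-through, 299 and 253 CPM in the mimic AGO2-IP, 201 and 323 CPM in the control flow-through and AGO2-IP. The mimic fractions overlapped, and its log2 fold change was −0.39 ± 0.58. PSMA5, PSMA6, PSMA3 and PSMA1 lay between, from 1.23 for PSMA6 to 0.44 for PSMA1.

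The constitutive beta subunits spread more widely than any other core group. PSMB1, a structural beta subunit at chr6:170535120-170553307 on the minus strand, was at 120.3 and 101 CPM in the mimic flow-through and 479.9 and 328 CPM in the mimic AGO2-IP, with 72.5 and 269.9 CPM in the control flow-through and AGO2-IP. All 3 AGO2-IP libraries were above all 3 flow-through libraries, and the log2 fold change over both transfections was 1.88 ± 0.41 (adjusted p = 0.042, edgeR). In the mimic alone it was 1.85 ± 0.60 (adjusted p = 0.12).

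PSMB3, another structural beta subunit at chr17:38752741-38764225 on the plus strand, went the other way. It was at 119 and 221 CPM in the mimic flow-through and 15.9 and 35.7 CPM in the mimic AGO2-IP, with 83.8 and 21.6 CPM in the control. Every AGO2-IP library was below every flow-through library. The log2 fold change was −2.47 ± 0.52 over both transfections (adjusted p = 0.0375, edgeR) and −2.74 ± 0.70 in the mimic (adjusted p = 0.074), or −2.78 with the replicate block (adjusted p = 0.0081). The proteolytic subunits PSMB5, PSMB6 and PSMB7 were at 1.03, 0.15 and 1.22 and the structural PSMB2 and PSMB4 at −0.72 and −0.34, none of them called.

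Inducible beta subunits replace the proteolytic ones in the immunoproteasome, the form that interferon induces. None of the 3 was called. PSMB8 was at 34.9 and 30.6 CPM in the mimic flow-through, 63.8 and 36.5 CPM in the mimic AGO2-IP, and 31.5 and 77.8 CPM in the control flow-through and AGO2-IP. The AGO2-IP was higher in all 3 pairs, and the mimic change was 0.60 ± 0.62 on the log2 scale. PSMB10 stayed near the bottom of the members, at 6.92 and 7.35 CPM in the mimic flow-through, 2.27 and 2.81 CPM in the mimic AGO2-IP, and 6.84 and 2.99 CPM in the control. PSMB9 was at 0.13. Transcripts of all 3 were lower in mimic than in control AGO2-IP, with a median log2 ratio of −0.77, a comparison against 1 library.

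Among the base ATPases, which form the unfolding ring, PSMC6 stood out. Its gene lies at chr14:52707178-52728590 on the plus strand, and its canonical transcript had the lowest GC content of the members (36.4%). It was at 53.6 and 21.3 CPM in the mimic flow-through and 629.5 and 454 CPM in the mimic AGO2-IP, and at 32.3 and 115 CPM in the control flow-through and AGO2-IP. The mimic AGO2-IP was far above the other 4 libraries. The mimic fold was 14.3, or 3.84 ± 0.71 on the log2 scale (adjusted p = 0.045, edgeR), and 3.21 ± 0.64 over both transfections (adjusted p = 0.035).

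PSMC4 had the lowest value of the base, at 89.7 and 92.9 CPM in the mimic flow-through, 62.7 and 67.4 CPM in the mimic AGO2-IP, and 70.5 and 77.2 CPM in the control. The control libraries differed little, and the mimic log2 fold change was −0.50 ± 0.58. PSMC2 was at 2.15 ± 0.61 (adjusted p = 0.089), and with the replicate block at 2.16 (adjusted p = 0.041). PSMC5, PSMC3 and PSMC1 were at 1.38, 0.47 and 0.28, not called.

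The 2 large scaffold subunits of the base, PSMD1 and PSMD2, behaved alike in direction. PSMD1, at chr2:231056845-231173116 on the plus strand, was at 77.8 and 47.4 CPM in the mimic flow-through, 307 and 373 CPM in the mimic AGO2-IP, and 48.1 and 153 CPM in the control. PSMD2, at chr3:184299198-184309050 on the plus strand, was at 512 and 858 CPM in the mimic flow-through, 4259 and 3761 CPM in the mimic AGO2-IP, and 269 and 2181 CPM in the control. For each, all 3 AGO2-IP libraries exceeded all 3 flow-through libraries. Over both transfections their log2 fold changes were 2.19 ± 0.45 and 2.71 ± 0.47 (adjusted p = 0.036 and 0.029, edgeR). In the mimic alone they were 2.43 and 2.53 (adjusted p = 0.074 and 0.066), and with the replicate block 2.46 and 2.58 (adjusted p = 0.019 and 0.0018). PSMD1 carries the 8-base seed match shown above, and PSMD2 carries none. PSMD4, the ubiquitin receptor of the base, was at 0.56 ± 0.63.

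PSMD2 was the most abundant member in CPM in every library. Per length it ranked first in the 3 AGO2-IP libraries and 8th, 4th and 2nd in the control flow-through and the mimic flow-through replicates. It held 0.0202% of gene counts in the control flow-through and 0.262% in the control AGO2-IP, and 0.0616% and 0.0739% in the mimic flow-through against 0.4495% and 0.381% in the mimic AGO2-IP.

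In the lid, PSMD14 rose in the AGO2-IP. The gene of this deubiquitinase lies at chr2:161308425-161411717 on the plus strand. Its level was 64.0 and 32.8 CPM in the mimic flow-through, 515 and 657 CPM in the mimic AGO2-IP, and 41.7 and 254 CPM in the control flow-through and AGO2-IP. The groups did not overlap in either transfection, and the mimic fold of 12 was 3.58 ± 0.67 on the log2 scale (adjusted p = 0.046, edgeR). Over both transfections it was 3.27 ± 0.51 (adjusted p = 0.023), the lowest adjusted p of the members.

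PSMD8, a structural lid subunit, had the lowest lid value. It was at 206 and 86.8 CPM in the mimic flow-through, 40.2 and 80.1 CPM in the mimic AGO2-IP, and 187 and 69.1 CPM in the control. All AGO2-IP libraries were below all flow-through libraries, but replicate 2 differed by little and the log2 fold change was −1.30 ± 0.67 (adjusted p = 0.26). PSMD7, the partner of PSMD14 in the deubiquitinase pair, was at 1.77 and PSMD13 and PSMD6 were at 0.94 and 0.52. PSMD3, which carries the 6-base match, and PSMD11 were at −1.11 and −0.89.

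PSMD12, a lid scaffold subunit at chr17:67337916-67366605 on the minus strand, had the largest difference between the mimic and the control change. It was at 116 and 88.6 CPM in the mimic flow-through and 378 and 305 CPM in the mimic AGO2-IP. In the control it was at 82.4 CPM in the flow-through and 61.0 CPM in the AGO2-IP. The mimic AGO2-IP was thus above the other 4 libraries, with a log2 fold change of 1.72 ± 0.59 (adjusted p = 0.13, edgeR) against a control ratio of −0.65. The difference of the 2 changes was 2.17 ± 1.03 on the log2 scale (unadjusted p = 0.057 and adjusted p = 0.9999 in edgeR's model over all genes). The transcript holds a 7-base seed match in its coding sequence.

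**Figure D1:**
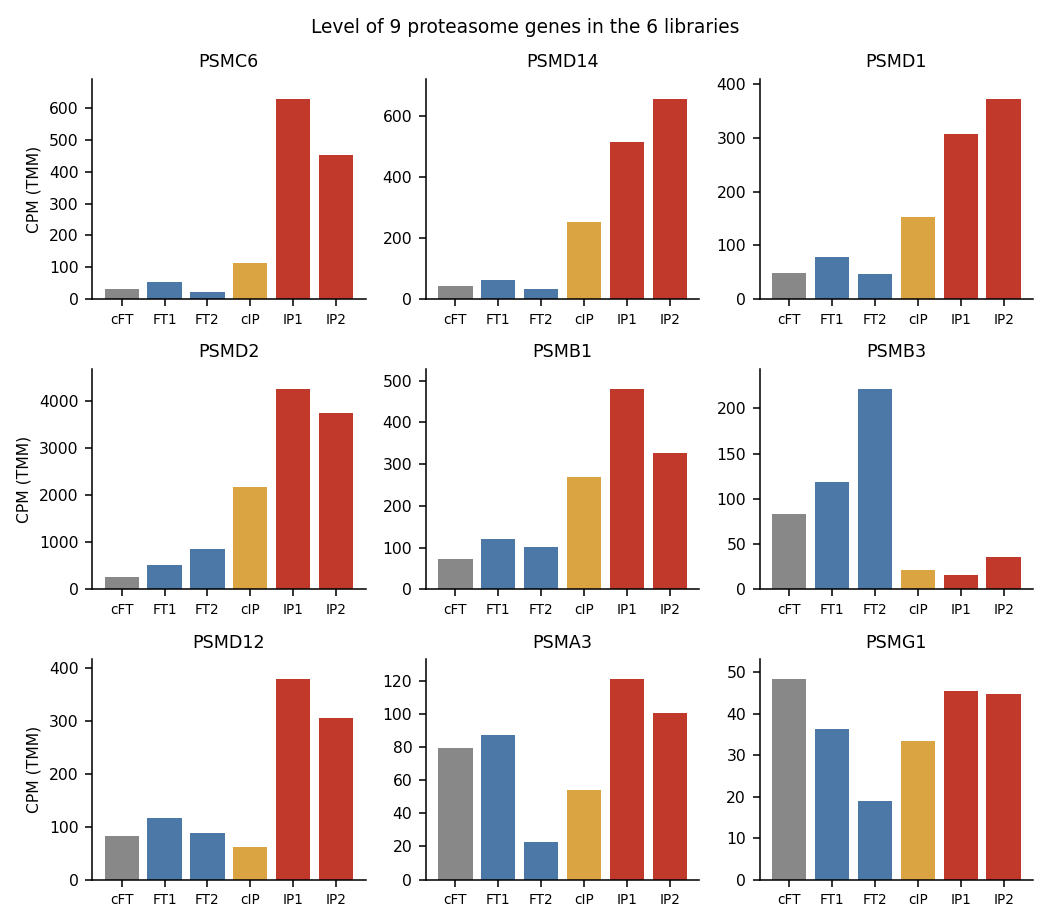
CPM on a linear axis from 0 (TMM-scaled, bars) in each library for the 6 members called in either fraction test and the 3 members that ran in opposite directions in mimic and control. cFT and cIP are the control flow-through and AGO2-IP, FT1 and FT2 the mimic flow-through replicates, IP1 and IP2 the mimic AGO2-IP replicates. The PSMC6 bars of the mimic AGO2-IP reach 629.5 and 454 CPM, and for PSMB3 the flow-through bars are the taller ones.

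Of the activators, which open the gate without ATP, PSME1 and PSME2 form the interferon-inducible ring, PSME3 the nuclear one, and PSME4 is a single large protein. None was called. PSME4 was at 129 and 54.5 CPM in the mimic flow-through, 269 and 203 CPM in the mimic AGO2-IP, and 63.1 and 127 CPM in the control, a log2 fold change of 1.35 ± 0.64. PSME2 was at 87.8 and 80.1 CPM in the mimic flow-through, 27.4 and 20.3 CPM in the mimic AGO2-IP, and 75.2 and 30.3 CPM in the control. It was lower in every AGO2-IP library, with a log2 fold change of −1.83 ± 0.61 (adjusted p = 0.12). The partner PSME1 was at −1.30, and PSME3 at −0.19. PSMF1, a protein known as a proteasome inhibitor, was at 119 and 85.9 CPM in the mimic flow-through, 35.6 and 38.3 CPM in the mimic AGO2-IP, and 116 and 40.4 CPM in the control. Its log2 fold change was −1.48 ± 0.60 (adjusted p = 0.17).

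Assembly chaperones were mixed. The core chaperones act in pairs, PSMG1 with PSMG2 and PSMG3 with PSMG4, and each pair held a member above and a member below 0. PSMG1 was at 36.3 and 18.9 CPM in the mimic flow-through, 45.5 and 44.8 CPM in the mimic AGO2-IP, and 48.2 and 33.4 CPM in the control flow-through and AGO2-IP. Its mimic change was 0.70 ± 0.63 on the log2 scale and its control ratio −0.74. PSMG4 was at 21.8 and 49.5 CPM in the mimic flow-through, 12.99 and 14.9 CPM in the mimic AGO2-IP, and 21.2 and 13.3 CPM in the control, or −1.37 ± 0.68. PSMG2 and PSMG3 were at −1.15 and 0.39. None of the 4 was called.

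Of the base chaperones, PSMD10, also known as the oncoprotein gankyrin, was at 46.6 and 11.6 CPM in the mimic flow-through, 295 and 142 CPM in the mimic AGO2-IP, and 35.6 and 96.5 CPM in the control. All AGO2-IP libraries were above all flow-through libraries. The log2 fold change was 2.90 ± 0.79 (adjusted p = 0.084, edgeR) and 3.12 with the replicate block (adjusted p = 0.0033). Its log2 ratio ran from 1.59 to 4.65 over all pairings of single mimic libraries across the fractions, regardless of replicate number. PSMD9 was at 8.16 and 6.44 CPM in the mimic flow-through, 5.76 and 2.18 CPM in the mimic AGO2-IP, and 5.47 and 5.88 CPM in the control, a log2 fold change of −0.89 ± 0.79. PSMD5 was at 0.93. Of the genes that share only the prefix, PSMC3IP was at 10.6 and 7.85 CPM in the mimic flow-through, 16.4 and 7.69 CPM in the mimic AGO2-IP, and 7.87 and 2.37 CPM in the control. PSME3IP1 was at 49.5 and 32.1 CPM in the mimic flow-through, 24.7 and 20.3 CPM in the mimic AGO2-IP, and 52.8 and 15.4 CPM in the control. Their log2 fold changes were 0.37 and −0.87.

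The 47 genes held 0.268% of gene counts in the control flow-through and 0.783% in the control AGO2-IP (95% Wilson intervals 0.265% to 0.272% and 0.777% to 0.789%, which cover counting error only). In the mimic they held 0.603% and 0.420% in the flow-through and 1.27% and 1.03% in the AGO2-IP. PSMD2 made up a large part of these shares in the AGO2-IP. Without it the shares were 0.248%, 0.542% and 0.346% in the control and 2 mimic flow-through libraries and 0.521%, 0.819% and 0.645% in the corresponding AGO2-IP libraries.

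The core and the regulatory particle were then compared within each library on levels per length (CPM per kb of canonical transcript). This is a description of chosen genes with no test. In the flow-through the median log2 level of the 13 core genes exceeded that of the 17 regulatory genes by 1.16 in the control and by 1.30 and 0.64 in the mimic replicates. In the AGO2-IP the difference of medians was 0.093 in the control and 0.45 and −0.092 in the mimic. With all 13 core genes the 3 flow-through values were thus above the 3 AGO2-IP values. In the control this order rests on PSMA1 and PSMA6, without which the AGO2-IP difference was 1.17, as given below. Genes within each particle varied widely, with an SD of 1.63 to 2.29 for the core and 1.15 to 1.76 for the regulatory particle.

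Summed per-length levels gave the same order. The core sum was 1.31 times the regulatory sum in the control flow-through and 1.41 and 1.17 times in the mimic flow-through, against 0.794 times in the control AGO2-IP and 0.599 and 0.529 times in the mimic AGO2-IP. PSMD2 made up 12.4% to 23.8% of the regulatory sum in the flow-through and 39.9% to 41.8% in the AGO2-IP. Without PSMD2 the ratio was 1.501, 1.69 and 1.54 in the flow-through and 1.36, 0.997 and 0.909 in the AGO2-IP, so the mimic AGO2-IP remained lowest and the control pair came close to each other.

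Gene by gene the particles differed little in the mimic. The median log2 fold change was 0.99 for the core and 0.94 for the regulatory particle, a difference of 0.05 with an SD of 0.94 between the replicate pairs. It was −1.09 without mimic flow-through replicate 2, −0.21 without mimic AGO2-IP replicate 2 and −0.58 after each library's trend on GC was removed, so it had no settled direction. In the control pair the medians were 0.05 and 0.45. The regulatory particle, with 17 of the 47 members, held both members called in the mimic and 4 of the 6 called over both transfections. A difference between the particles in calls was not tested. PSMA1 and PSMA6 are core genes that share most of their exon bases with another gene. Omitting them raised the control AGO2-IP difference of levels from 0.093 to 1.17 and that of mimic flow-through replicate 2 from 0.64 to 1.63. These medians thus rest on few genes. At 1.17 the control AGO2-IP was no longer below the 1.16 of the control flow-through with all core genes.

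**Figure D2:**
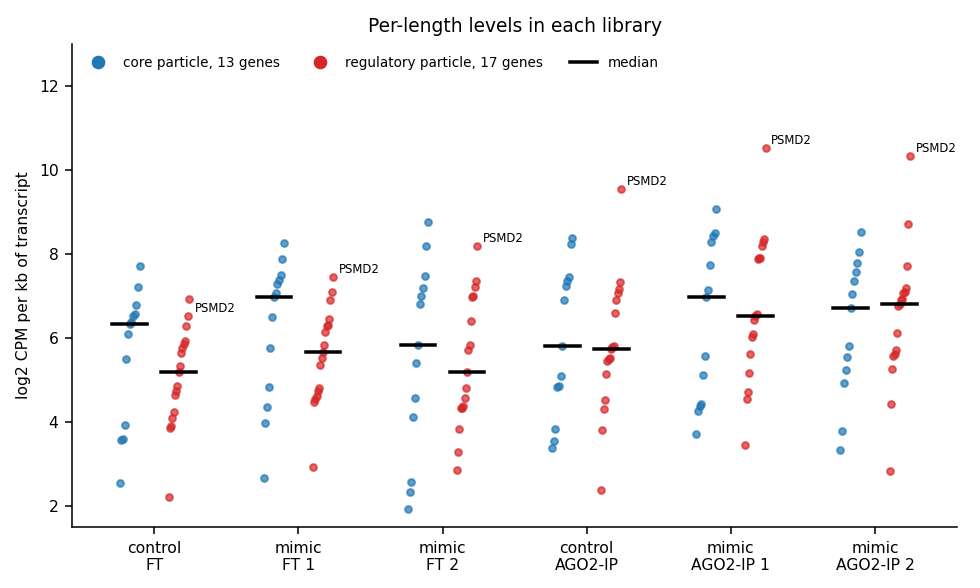
Log2 CPM per kb of canonical transcript (y axis) of the 13 core genes and 17 regulatory genes in each library, with the median as a bar and each gene as a point. The core median is above the regulatory median by 0.64 to 1.30 in the flow-through and by −0.092 to 0.45 in the AGO2-IP, and PSMD2 is the top point of the AGO2-IP. With PSMA1 and PSMA6 omitted, the control AGO2-IP difference is 1.17.

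The control pair, 1 AGO2-IP and 1 flow-through library, gives log2 ratios without a test for 43 members. PSMA6, PSMB10, PSMD9 and PSMC3IP had too few control counts. The ratio was at least 1 for 9 members and at most −1 for 8, beside 15.9% and 18.1% of 8245 genes, with a median of 0.11. PSMD2 had the highest control ratio, 2.80, followed by PSMD14 at 2.38 and PSMB1 at 1.68, and PSMG2 the lowest, −2.22, followed by PSMB3 at −2.16. Control and mimic changes had the same sign in 36 of 43 members, and over these genes Pearson's r was 0.84 and Spearman's rho 0.83. Over 8106 protein-coding genes rho was 0.56. The points share libraries and are not independent replicates. Scaling by library size alone moved the median control ratio of all genes from 0.01 to 0.89 and that of the members to 0.997, so directions in the control are relative to the other genes.

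In all, 3 members ran in opposite directions, with both mimic AGO2-IP libraries above both mimic flow-through libraries and the control the other way. They were PSMA3, PSMD12 and PSMG1, 6.98% of 43 members against 11.6% of 8225 genes. PSMA3, an alpha subunit, was at 87.2 and 22.9 CPM in the mimic flow-through, 121 and 100.5 CPM in the mimic AGO2-IP, and 79.3 and 54.1 CPM in the control flow-through and AGO2-IP. Its mimic change was 0.99 and its control ratio −0.77, on the log2 scale. Under library-size scaling the control ratios of PSMA3, PSMD12 and PSMG1 became 0.12, 0.24 and 0.14, and the opposition was lost. The test of the difference between the mimic and the control change called 0 of 47 members and 0% of 13319 genes in either direction by edgeR, with no member and 82 genes at an unadjusted p under 0.05. Each control arm had 1 library, assumed to vary like the mimic libraries.

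**Figure D3:**
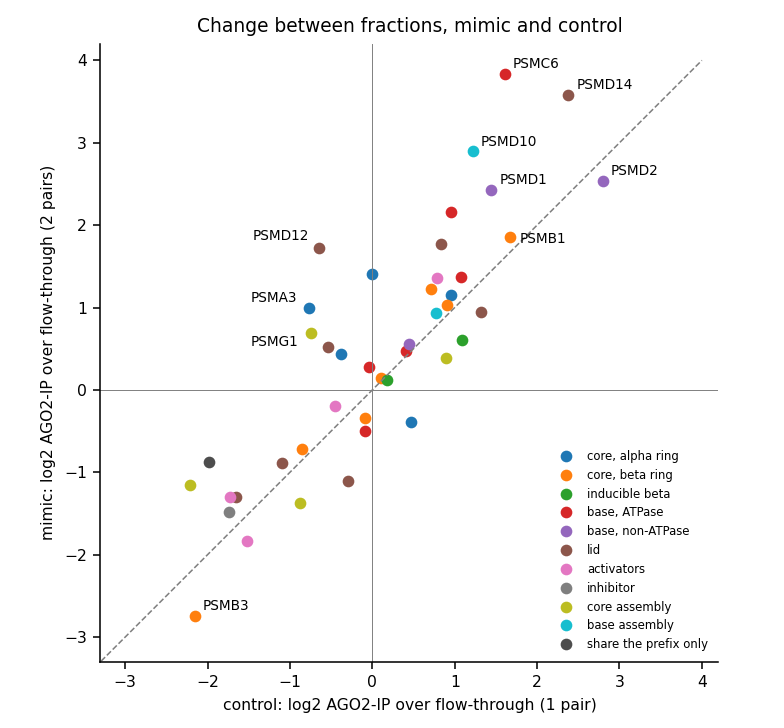
Log2 change of AGO2-IP over flow-through in mimic cells (y axis, 2 pairs) against the control ratio (x axis, 1 pair) for 43 members, coloured by role, with the line of equality dashed. Of these genes 36 have the same sign on both axes, and PSMD12, PSMA3 and PSMG1 lie in the upper left.

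Between mimic and control AGO2-IP, a comparison with 1 control library, the log2 ratio was at least 1 for 9 members and at most −1 for none, beside 17.3% and 17.4% of 11467 genes. The largest was PSMD12 at 2.39, which was 2.55 and 2.24 for the 2 mimic libraries, and PSMC3IP and PSMC6 followed at 2.14 and 2.13. The median was 0.35 for all members, 0.39 for the core and 0.79 for the regulatory particle, against 0.02 for all genes. In the flow-through 1 member, PSMD2 at 1.27, was at least 1 and none at most −1, beside 10% and 10.2% of 12254 genes. Its ratio was 0.88 and 1.66 for the 2 mimic flow-through libraries. The members' median flow-through ratio was 0.21, or −0.11 without replicate 1 of the mimic flow-through and 0.22 without replicate 2. Scaling by library size moved the median of all genes from 0.05 to 0.52 in the flow-through and from 0.02 to −0.11 in the AGO2-IP. The members' medians were then 0.68 and 0.22. Over both fractions edgeR called no member between mimic and control, beside 0% of 13319 genes higher and 0.173% lower, with no member and 1340 genes at an unadjusted p under 0.05. Without mimic flow-through replicate 2, PSMC6 and the lid subunit PSMD6 were called higher, beside 5.18% of genes called higher.

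Transcript composition varied with the mimic change. Across the 47 members the log2 fold change had a Spearman's rho of −0.51 with the GC content of the canonical transcript, and across 11747 protein-coding genes it was −0.55. The 16 members under 45% GC had a median log2 fold change of 1.29, with 14 above 0. The medians were −0.27 for the 16 members from 45% to under 52% and 0.15 for the 15 members at 52% or more. The difference between the 2 mimic flow-through libraries followed GC too, with a rho of −0.68 in members and −0.75 in all, while the control ratio had a rho of −0.08 in 43 members and 0.13 in all. Of the 15 members at 52% or more, 9 were above 0, among them PSMD2 (52.9%), PSMC5 (52.2%) and PSMB5 (53.0%). The fit after each library's trend on GC was removed called 6 members higher (PSMB1, PSMC6, PSMD1, PSMD10, PSMD14 and PSMD2) and 2 lower (PSMB3 and PSME2), beside 3.32% and 2.36% of genes. With the replicate block as well it called 13 and 7, beside 14% and 12.7% of genes.

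**Figure D4:**
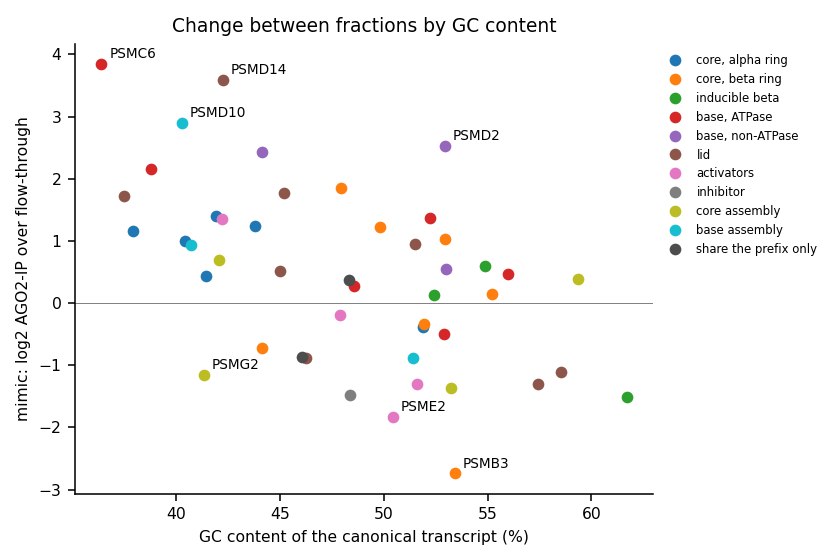
Log2 fold change of mimic AGO2-IP over mimic flow-through (y axis) against GC content of the canonical transcript in percent (x axis) for the 47 members, coloured by role. Values are higher on the left, with PSMC6 at 36.4% GC and 3.84, while PSMD2 at 52.9% and PSMB3 at 53.4% lie at 2.53 and −2.74.

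Counting affected some members. PSMA6, PSMA1 and PSMB10 share 81.4%, 67.0% and 56.1% of their exon bases with another gene on the same strand, PSMD9 shares 28.8% and PSMA2 all of them, and read pairs that touch more than 1 gene are not in the counts. PSMC1, PSMC3IP and PSMD7 overlap genes on the opposite strand over 83.2%, 57.2% and 51.6% of their exon bases, and their strand-wise counts summed to 2.93, 2.87 and 1.93 times the unstranded count. For 34 members the sums were within 1%. The 44 pseudogenes with such names held 1141 counts in all, 0.0734% of those of all 50 protein-coding genes with a matching symbol. Reads shared with a near-identical copy are not in the counts.

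The 23 other proteasome genes that the symbol rule does not take, such as the receptor ADRM1, the small subunit SEM1, the chaperone POMP, the deubiquitinases USP14 and UCHL5 and the transcription factor NFE2L1, were all tested. None was called in the mimic by edgeR, with a median log2 fold change of 0.54. The highest was PITHD1, a protein with a proteasome-interacting domain, at 35.9 and 30.3 CPM in the mimic flow-through, 265 and 194 CPM in the mimic AGO2-IP, and 24.97 and 126 CPM in the control. Over both transfections PITHD1 and PAAF1, which binds the base ATPases, rose by 2.64 ± 0.42 and 2.59 ± 0.43 on the log2 scale (adjusted p = 0.025 and 0.026, edgeR).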

How the data were processed

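RNA of the AGO2-IP and flow-through fractions was sequenced in 6 libraries. Per the labels and the methods of the study, the authors used FastQC 0.11.9 and cutadapt 3.5 on the reads and STAR 2.7.11b with GRCh38 for alignment, and deposited STAR's counts per gene, whole numbers without normalization. The unstranded counts were used here. STAR's summary lines, which name no gene, were left out of library sizes, and their share is given with the results. Genes were from Ensembl, in a release not given in the sources used here. Of 60708 identifiers, 60463 were named through GENCODE 44. Members and lists were chosen with earlier results of these data known.

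Fractions were compared with edgeR 4.0.16 (glmQLFit and glmQLFTest, TMM, R 4.3.3) over all genes that summed to 200 counts or more, with Benjamini-Hochberg adjustment and a standard error equal to the log2 fold change divided by the square root of F. Comparisons against 1 control library are log2 ratios of CPM with a prior count of 2. Mimic AGO2-IP and flow-through share replicate numbers, and a flow-through is what its pull-down leaves, although the labels name no common lysate. The test had no block, and a model blocked on this number is given where it changed a call. Between libraries with 1 number, deviations from the group mean correlated with r = 0.324 over genes and −0.0099 over members. P-values measure the spread of these libraries through a variance that edgeR shares across genes, not each gene's own spread alone. Those of the blocked model rest almost wholly on this shared variance. Library depth is given with the results.

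Every member is named once. Values in each library are given for the highest and lowest of each class, for members called in a tested comparison and for members opposite in mimic and control. Alternatives were the replicate block, PyDESeq2 0.5.4, DESeq2 1.42.0 size factors, library size, other filters, strand columns, thinning, GC trend removal (lowess span 0.2), protein-coding genes, all 6 libraries in 1 fit and each library left out. Leaving out a control library, omitting core genes with shared exons and summing the strand columns were chosen after seeing the data. A related gene that this rule names is not reported here.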

Additional observations from a re-analysis of the deposited data

Results flagged for a closer look

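In PSMA3, PSMD12 and PSMG1 the mimic AGO2-IP libraries were both above the mimic flow-through, whereas the control pair had the opposite order. The log2 fold changes in the mimic were 0.99, 1.72 and 0.70, and the control ratios −0.77, −0.65 and −0.74. The edgeR test of the difference gave an adjusted p of 0.9999 for each, with unadjusted p of 0.23, 0.057 and 0.28. With library size in place of TMM the control ratios were 0.12, 0.24 and 0.14, so the opposition depends on the scaling.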

How the results depend on the processing

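Counts of called members depended most on the fit. For mimic AGO2-IP against flow-through, 2 higher and 0 lower became 6 and 1 with the replicate block (which changed no call other than those named in the results), 13 and 7 with the block and the GC trend removed together (14% and 12.7% of all genes), 6 and 2 with the GC trend removed (3.32% and 2.36%) and 9 and 2 with PyDESeq2 (6.43% and 8.24%). There were 6 higher with no count filter (0.96% of genes) and 1 lower after thinning to the shallowest library (2.3%). None was higher with DESeq2 size factors, library size, filterByExpr, either strand column or protein-coding genes only (0% to 0.0994% of genes). Leaving out a library gave 0 to 15 higher and 0 to 5 lower, where a lone library was assumed to vary like the other arm. Over both transfections, 5 and 1 became 12 and 7 with the GC trend removed (11.6% and 9.87% of genes) and 2 lower with protein-coding genes only (2.87%). They became 0 and 0 without the control AGO2-IP (0.0379% and 0.152%) and 2 and 0 without the control flow-through (0.28% and 0.416%). With a mimic library left out they were 0 to 12 and 0 to 8 (0% to 14.8% and 0% to 14.5%). Between mimic and control, leaving out a library gave 0 to 2 higher. The causes were not tested.

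The members' median mimic change of 0.47 was 0.28 with the GC trend removed, 0.27 with the block as well, 0.89 with no filter, 0.65 with filterByExpr and −0.00136 to 0.78 with a library left out. The core median minus the regulatory median of 0.05 was −1.09 to 0.012 with a library left out. For mimic over control AGO2-IP this difference of −0.41 was −0.45 with the GC trend removed, −0.42 after thinning and −0.19 and −0.17 with a library left out. In the flow-through the difference of 0.09 was −0.20 with the GC trend removed and −0.20 to 0.14 with a library left out, and the median of 0.21 was −0.11 to 0.22. With library size alone the medians were 0.997 for the control ratio, with 21 members at 1 or more and 3 at −1 or less, and 0.68 in the flow-through, with 14 at 1 or more. In the AGO2-IP 5 were then at 1 or more and 1 at −1 or less, also 1 after thinning and 0 to 2 with a library left out. In the flow-through 0 to 7 were at 1 or more and 0 to 8 at −1 or less with a library left out. Without core genes with shared exons, the core exceeded the regulatory particle by 1.17 in the control AGO2-IP and 1.63 in mimic flow-through replicate 2.

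Some members near 0 changed sign. With the GC trend removed PSMA1 was at −0.12, or −0.17 with the block. With no filter PSMB4, PSME3 and PSMA7 were at 0.016, 0.19 and 0.053. PSMB9 was at −0.0078 on strand column 3, PSMC3IP at −0.045 on strand column 4, and PSMB9 and PSMB6 at −0.046 and −0.054 after thinning. With a library left out the ranges were −0.013 to 1.24 for PSMD6, −0.53 to 0.53 for PSMB9, −0.17 to 1.104 for PSMG3, −0.13 to 1.25 for PSMA1, −0.078 to 0.51 for PSMC1, −0.00136 to 0.78 for PSMC3, −0.29 to 0.78 for PSMC3IP and −0.26 to 0.42 for PSMB6.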
